A study of Homo sapiens with 8 samples.

Results

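Messenger and precursor RNA of 10 subunits of the Integrator complex was measured across 8 libraries of human U2OS osteosarcoma cells. The members are the rows of the deposited gene table that carry the symbols INTS1, INTS2, INTS3, INTS4, INTS5, INTS6, INTS8, INTS9, INTS11 and INTS12. All 10 symbols were found, each in 1 row, out of 80311 rows in all, and all 10 passed the filter on low counts. The libraries formed 4 groups of 2. The U2OS-Flp-In-TREx line (Flp-In from here on) received the control siRNA siNC or siMePCE, an siRNA against the 7SK capping enzyme MePCE. The U2OS- AiD-DiVA AsiSI -ER line (AsiSI from here on) received the same siRNAs and, in every library, 300 nM 4-OHT. In such lines the cutting enzyme AsiSI is fused to an oestrogen receptor domain and enters the nucleus when 4-OHT is given. All 4 groups were transfected with siRNA at 0 h and again at 48 h and lysed at 96 h, and 4-OHT was added to AsiSI cells at 92 h for 4 h. No 4-OHT is stated for Flp-In cells and no AsiSI library without it was used here, so cell line and 4-OHT cannot be told apart. Whether the 2 libraries of a group are separate cultures is not stated, and the p-values therefore rest on a spread between libraries that may be technical. Nor do the labels say whether either line is 1 clone or 1 siRNA sequence was used.

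Integrator is a large nuclear complex that binds paused RNA polymerase II. Its cleavage module cuts nascent RNA, which forms the 3′ ends of spliceosomal small nuclear RNAs (snRNAs) and ends transcription early at many protein-coding genes. Its phosphatase module, built around PP2A, removes phosphates from the polymerase and its elongation factors, opposing the kinase P-TEFb. The 7SK RNA capped by MePCE holds P-TEFb in an inactive particle. INTS1, INTS2 and INTS5 form scaffold contacts, INTS8 and INTS6 hold PP2A, INTS11 is the endonuclease, and INTS9 and INTS4 are its partners. INTS3 belongs to the SOSS single-stranded DNA-binding complex as well, and INTS12 carries a PHD finger.

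The promoters of 4 members whose RNA moved in opposite directions after siMePCE are printed here, so that INTS1 and INTS11, which fell, can be set beside INTS4 and INTS6, which rose in at least 1 line. Each sequence is the 250 bases before the start site in RefSeq, build GRCh38.p14, on the gene's own minus strand, 5′ to 3′. Capitals mark matches, on either strand, to CCGGAAG (reverse complement CTTCCGG), the core bound by ETS-type factors, or to CACGTG, an E-box. The motifs were chosen after the sequences had been seen.
INTS1, chr7:1504390-1504639: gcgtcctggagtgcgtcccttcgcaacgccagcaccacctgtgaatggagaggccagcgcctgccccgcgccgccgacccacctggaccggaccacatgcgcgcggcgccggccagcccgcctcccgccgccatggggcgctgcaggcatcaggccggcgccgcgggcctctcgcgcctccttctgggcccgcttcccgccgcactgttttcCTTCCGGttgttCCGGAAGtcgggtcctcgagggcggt
INTS11, chr1:1324661-1324910: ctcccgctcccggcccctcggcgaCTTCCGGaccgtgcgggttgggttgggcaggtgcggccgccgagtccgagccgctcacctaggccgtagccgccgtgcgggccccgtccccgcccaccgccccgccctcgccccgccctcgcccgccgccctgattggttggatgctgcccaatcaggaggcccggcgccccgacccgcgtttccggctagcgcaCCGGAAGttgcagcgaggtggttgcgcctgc
INTS4, chr11:77994669-77994918: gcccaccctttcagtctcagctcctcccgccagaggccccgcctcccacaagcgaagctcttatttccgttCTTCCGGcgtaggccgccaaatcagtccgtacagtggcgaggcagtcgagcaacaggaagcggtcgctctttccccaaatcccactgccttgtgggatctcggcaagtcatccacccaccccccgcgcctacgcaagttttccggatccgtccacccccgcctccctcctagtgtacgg
INTS6, chr13:51453037-51453286: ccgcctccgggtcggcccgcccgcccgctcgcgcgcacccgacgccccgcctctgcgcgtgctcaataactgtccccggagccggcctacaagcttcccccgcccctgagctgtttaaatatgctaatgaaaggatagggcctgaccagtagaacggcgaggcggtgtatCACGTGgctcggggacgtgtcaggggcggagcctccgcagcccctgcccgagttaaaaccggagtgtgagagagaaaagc
The INTS1 and INTS11 windows each held 2 matches to CCGGAAG. In both, 1 of them lay close to the start site, beginning 26 bases before it in INTS1 and 31 bases before it in INTS11. The INTS4 window held 1 match, 179 bases before the start site. The INTS6 window held none and had 1 CACGTG instead, 80 bases before the start site. Of 35116 RefSeq promoter windows, 8.52% held CCGGAAG and 6.34% held CACGTG. GC content was 74.0% in INTS1, 76.4% in INTS11, 62.8% in INTS4 and 66.0% in INTS6, against a median of 58.0% over the same 250 bases of all promoters. The table had promoter entries for 7 of the 10 members. Among the others it held, INTS3 had 1 match to CCGGAAG, and INTS2 and INTS12 had none. INTS12 and its neighbour GSTCD start 95 bases apart on opposite strands, and their full windows of 300 bases have 194 bases in common. INTS5, INTS8 and INTS9 are the 3 members not covered. The GC box (GGGCGG) and the CCAAT box were also scanned and are not marked above. Matches to the GC box numbered 1 in INTS1, 5 in INTS11, 0 in INTS4 and 4 in INTS6. Matches to the CCAAT box numbered 2 in INTS11 and 0 in INTS1, INTS4 and INTS6. Neither of these motifs separated the genes that fell from those that rose. The presence of CCGGAAG did not separate them either, since INTS4, which rose in Flp-In, held it too. INTS3, which fell, had 1 match, as INTS4 did. A match is a description of letters and not a binding site.

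Depth was even, with 41431776 to 53695626 counts per library. The siRNA labels were borne out by their target. MEPCE averaged 40.0 CPM (counts scaled to library size) under siNC and 5.10 CPM under siMePCE in Flp-In, and 29.3 and 2.97 CPM in AsiSI. RN7SK, the 7SK gene, fell by 2.31 log2 units in Flp-In and fell by 2.30 in AsiSI. Of 7 osteoblast-lineage genes checked for this osteosarcoma line, SPARC averaged 282.5 to 473.9 CPM over the groups, COL1A1 28.1 to 111 CPM and RUNX2 30.5 to 44.1 CPM, whereas SP7, BGLAP, COL1A2 and ALPL stayed at or under 1.14 CPM. Markers of other cell types were low. The 4 of 5 that had a row (EPCAM, CDH1, PTPRC and CD3E) summed to 9.96 to 10.7 CPM in Flp-In siNC and 13.1 to 13.6 CPM in Flp-In siMePCE. In AsiSI they summed to 9.87 to 11.3 CPM under siNC and 14.5 to 16.1 CPM under siMePCE, and CD3E never exceeded 6 counts. Mitochondrial genes took 5.23% to 5.91% of counts in siNC libraries and 8.24% to 10.6% in siMePCE libraries. These shares moved with the knockdown in both lines. A fit without mitochondrial, 7SK, 7SL and ribosomal RNA genes called 5 members lower and 2 higher in Flp-In. In AsiSI it called 6 lower and 1 higher. Both lines gave the same numbers with these genes kept. No other part of these shares in the values below was tested. In bulk RNA, fewer cells with a transcript and less RNA per cell cannot be told apart.

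Each row of the table counts reads over the whole stretch from a gene's start to its end, introns included. Levels of different subunits were therefore compared only as CPM per kb of that interval. On that scale INTS1 averaged 3.72 ± 2.10 CPM per kb over the 8 libraries (SD) and INTS5 averaged 2.99 ± 1.07. INTS11 followed at 1.86 ± 0.646 and INTS2 at 1.16 ± 0.178. INTS3 stood at 0.836 ± 0.153, INTS6 at 0.671 ± 0.105, INTS4 at 0.547 ± 0.0703 and INTS8 at 0.523 ± 0.141. The lowest were INTS12 at 0.366 ± 0.10 and INTS9 at 0.231 ± 0.0772. Over the 8 libraries, which mix the 4 groups, the ranges of all neighbours in this order overlapped. Within libraries, INTS5 was above INTS11 and INTS12 was above INTS9 in 8 of 8. INTS4 was above INTS8 in 4 of 8, and the other neighbours kept this order in 6 or 7 of 8. The scale favours short intervals, since INTS5 spans 6.46 kb and INTS12 spans 213.4 kb. The INTS12 interval also holds all of GSTCD, so its place here says little about INTS12 itself. INTS1 also varied most, with a coefficient of variation of 56.3% over the libraries, and INTS4 varied least, at 12.8%.

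After siMePCE the subunits did not move as a block. In Flp-In, 5 of 10 fell (INTS1, INTS11, INTS8, INTS5 and INTS3), 2 rose (INTS4 and INTS6) and 3 did not pass the test. In AsiSI, 6 of 10 fell, the same 5 and INTS9, INTS6 rose, and INTS2, INTS4 and INTS12 did not pass. A gene passed at an adjusted p under 0.05 in edgeR's quasi-likelihood test over 43321 genes. In that test 22.7% of all genes were lower and 18.1% higher in Flp-In, and 21.3% were lower and 16.8% higher in AsiSI. Among 17341 protein-coding genes the shares lower were 34.2% and 35.0%. The median log2 change of the members was -0.24 in Flp-In and -0.44 in AsiSI, beside -0.10 and -0.14 for protein-coding genes and 0.03 and 0.04 for all genes tested. The 2 libraries of each siRNA did not overlap in CPM for 8 of the 10 members in Flp-In, 6 lower and 2 higher, beside 36.6% of all genes lower and 36.3% higher. In AsiSI the same counts held, beside 33.3% and 33.5%.

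**Figure D1:**
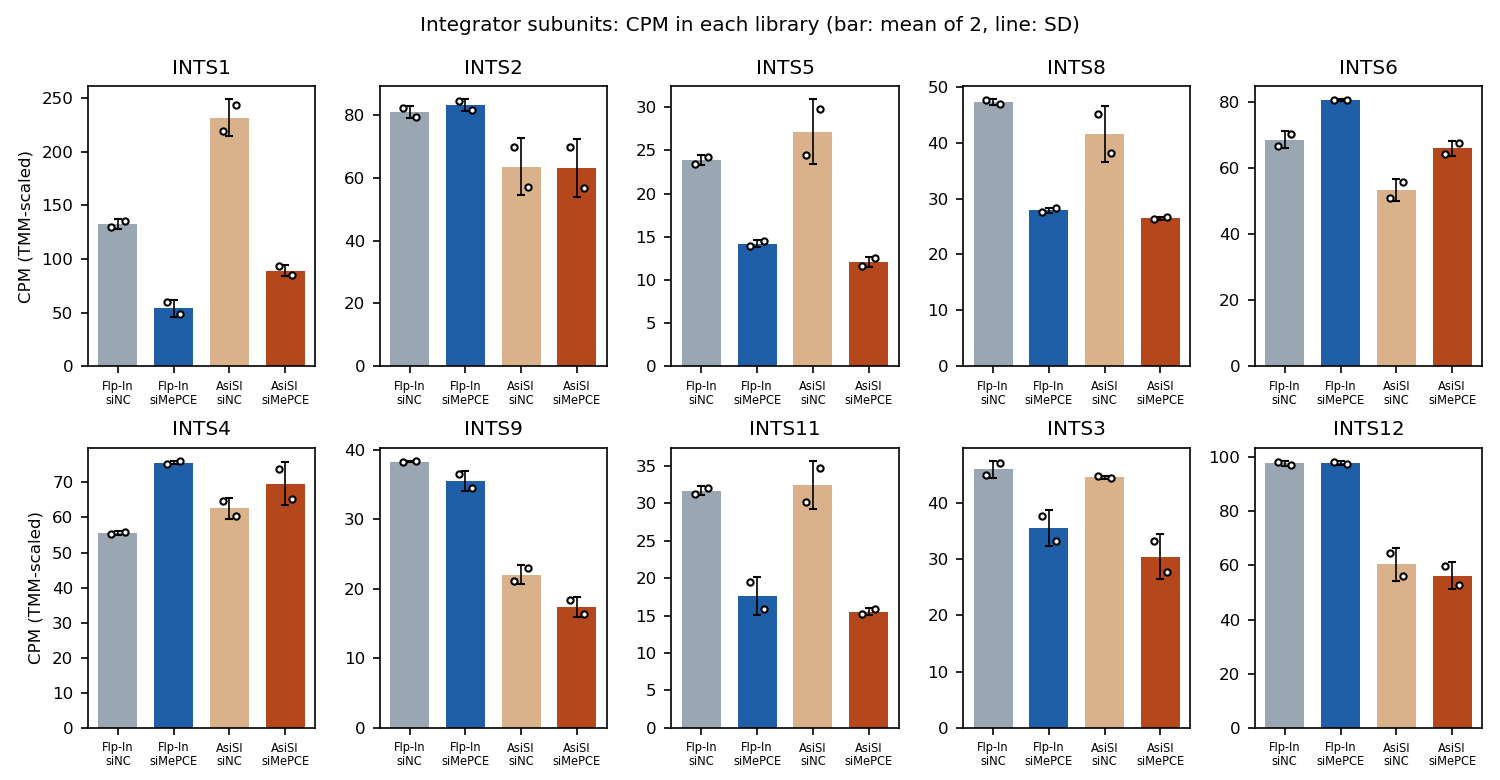
CPM of the 10 subunits in each library (circles), with the mean of 2 libraries as a bar and the SD as a line, for the 4 groups. INTS1, INTS5, INTS8 and INTS11 are lower in both siMePCE groups than in the siNC group of their line, and INTS9 and INTS12 are lower in both AsiSI groups than in either Flp-In group.

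The scaffold subunit INTS1 (ENSG00000164880.16_9, chromosome 7, 1509913 to 1544025, minus strand, hg19) had the largest fall of the 10 in both lines. In Flp-In it counted 5556 and 5671 reads under siNC and 2955 and 2350 under siMePCE, or 129.5 and 136 CPM against 59.9 and 48.6 CPM. In AsiSI it counted 10538 and 12822 reads under siNC and 4140 and 3794 under siMePCE, or 219.6 and 244 CPM against 93.3 and 85.4 CPM. Every siMePCE library was lower than every siNC library, and the highest level of all was in AsiSI siNC. The fall was 2.44-fold in Flp-In (log2 fold change -1.29, SE 0.0999, adjusted p = 2.48e-09), and in AsiSI it was 2.59-fold (-1.37, SE 0.0992, adjusted p = 9.39e-10). The change in AsiSI differed from that in Flp-In by -0.09 log2 units (95% interval -0.37 to 0.20, adjusted p = 0.812).

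INTS5 (ENSG00000185085.2_9, chromosome 11, 62414320 to 62420774, minus strand, hg19), a scaffold subunit next to the phosphatase module, counted 1007 and 1014 reads under siNC and 686 and 702 under siMePCE in Flp-In. The AsiSI counts were 1175 and 1568 under siNC and 517 and 556 under siMePCE. The groups did not overlap in either line. INTS5 fell 1.68-fold in Flp-In (log2 fold change -0.75, SE 0.127, adjusted p = 6.71e-05), and in AsiSI it fell 2.25-fold (-1.17, SE 0.128, adjusted p = 3.00e-07). The difference between these changes was -0.42 log2 units, with a 95% interval of -0.79 to -0.05 and an unadjusted p of 0.0290 that became 0.214 over all genes. AP001458.2, on the same strand, covers 55.9% of the INTS5 interval and had 0.581 times its counts. That row also fell in both lines, by fitted log2 changes of -0.60 and -1.01. It may count the same reads as INTS5, so its fall is not a separate observation.

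The INTS8 gene, whose product holds the PP2A enzyme on the complex, counted 2041 and 1960 reads under siNC and 1360 and 1366 under siMePCE in Flp-In. The AsiSI counts were 2162 and 2002 under siNC and 1167 and 1185 under siMePCE. Again no siMePCE library reached a siNC library of its line, in CPM as in counts. The fall was 1.69-fold in Flp-In (log2 fold change -0.76, SE 0.106, adjusted p = 7.08e-06), and in AsiSI it was 1.57-fold (-0.65, SE 0.106, adjusted p = 4.96e-05). INTS8 lies on the plus strand of chromosome 8, 95825539 to 95893974 in hg19. The cyclin gene CCNE2 overlaps its end by 1.98 kb and had 0.327 times the counts of INTS8. CCNE2 itself was lower in both lines, by log2 changes of -0.80 and -0.63.

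INTS6, a phosphatase-module subunit that contacts PP2A, went the other way. The row (ENSG00000102786.15_15, chromosome 13, 51928213 to 52028400, minus strand, hg19) stood at 66.8 and 70.4 CPM under siNC and at 80.8 and 80.5 CPM under siMePCE in Flp-In. Its AsiSI libraries stood at 51.0 and 55.8 CPM under siNC and at 64.4 and 67.6 CPM under siMePCE. Both siMePCE libraries were above both siNC libraries in each line. The rise was 1.17-fold in Flp-In (log2 fold change 0.23, SE 0.0904, adjusted p = 0.0454), and in AsiSI it was 1.24-fold (0.30, SE 0.0909, adjusted p = 0.0113). Both calls were fragile. In Flp-In the adjusted p ranged from 0.0513 to 0.311 when any library other than the second AsiSI siNC library was left out, and in AsiSI it was 0.131 without AsiSI siNC replicate 1 and 0.0860 without AsiSI siMePCE replicate 2.

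INTS2 (ENSG00000108506.14_19, chromosome 17, 59942728 to 60005377, minus strand, hg19), another scaffold subunit, shared no more than a trace of its reads with any other row. Its libraries stood at 82.1 and 79.4 CPM under siNC and 84.3 and 81.6 CPM under siMePCE in Flp-In. The AsiSI libraries stood at 69.9 and 57.1 CPM under siNC and 69.6 and 56.6 CPM under siMePCE. The siRNA groups overlapped in both lines. The log2 fold change was 0.04 in Flp-In (95% interval -0.19 to 0.26, adjusted p = 0.796) and -0.01 in AsiSI (95% interval -0.23 to 0.22, adjusted p = 0.961).

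**Figure D2:**
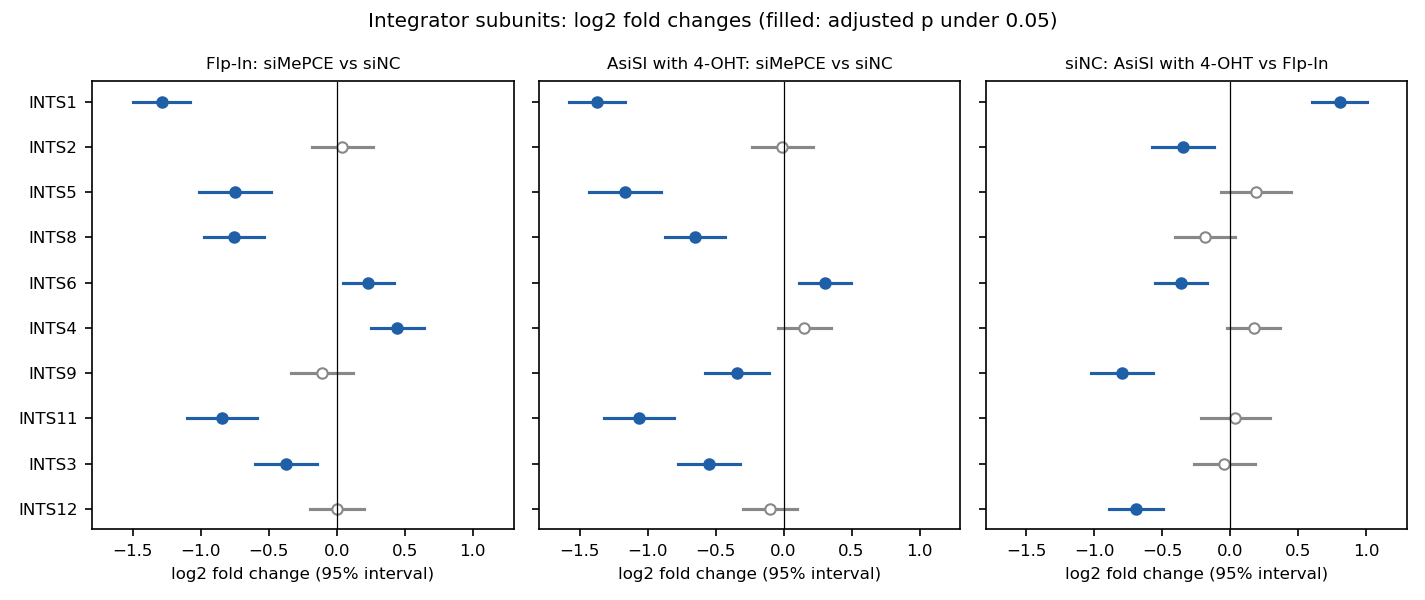
Log2 fold changes of the 10 subunits with 95% intervals for siMePCE against siNC in Flp-In, the same in AsiSI with 4-OHT, and AsiSI with 4-OHT against Flp-In under siNC; filled points passed an adjusted p of 0.05. INTS1 lies near -1.3 in both siRNA panels and at 0.80 in the line panel, whereas INTS2 and INTS12 lie near 0 in both siRNA panels.

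Within the cleavage module the 3 subunits differed. INTS11 (ENSG00000127054.22_11, chromosome 1, 1246965 to 1260067, minus strand, hg19), the endonuclease, counted 1340 and 1342 reads under siNC and 959 and 767 under siMePCE in Flp-In. The AsiSI counts were 1451 and 1828 under siNC and 674 and 706 under siMePCE. As CPM these were 31.2 and 32.1 against 19.4 and 15.9 in Flp-In, and 30.2 and 34.8 against 15.2 and 15.9 in AsiSI, with no overlap. INTS11 fell 1.79-fold in Flp-In (log2 fold change -0.84, SE 0.123, adjusted p = 1.25e-05), and in AsiSI it fell 2.09-fold (-1.06, SE 0.124, adjusted p = 7.33e-07).

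INTS9, the catalytically inactive partner of INTS11 (chromosome 8, 28625178 to 28747759, minus strand, hg19), counted 1640 and 1604 reads under siNC and 1804 and 1671 under siMePCE in Flp-In. Scaled to depth these were 38.2 and 38.4 CPM against 36.6 and 34.6 CPM, a log2 fold change of -0.11 (adjusted p = 0.456). In AsiSI it stood at 21.1 and 23.0 CPM under siNC and 18.4 and 16.4 CPM under siMePCE and fell 1.27-fold (-0.34, SE 0.112, adjusted p = 0.0210). That call did not hold without AsiSI siNC replicate 2 (adjusted p = 0.117), without AsiSI siMePCE replicate 2 (0.157) or in a fit of the 4 AsiSI libraries alone (0.0740). The log2 changes of INTS9 in the 2 lines differed by -0.23 (adjusted p = 0.480), so no difference between lines was shown.

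Counts of INTS11 and INTS9 were also set against each other within each library, which cancels depth. INTS11 had 0.817 and 0.837 times the counts of INTS9 under siNC and 0.532 and 0.459 times under siMePCE in Flp-In. In AsiSI the ratio was 1.44 and 1.51 under siNC and 0.823 and 0.971 under siMePCE. The ratio was thus lower in every siMePCE library than in either siNC library of its line, and higher in each AsiSI group than in the Flp-In group with the same siRNA.

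INTS4, the scaffold of the cleavage module (ENSG00000149262.19_14, chromosome 11, 77585464 to 77705761, minus strand, hg19), rose in Flp-In. It stood at 55.2 and 55.9 CPM under siNC and at 75.3 and 76.0 CPM under siMePCE there. In AsiSI it stood at 64.7 and 60.5 CPM under siNC and at 73.9 and 65.2 CPM under siMePCE, where the groups did not overlap but lay close. The rise was 1.36-fold in Flp-In (log2 fold change 0.45, SE 0.0932, adjusted p = 0.000615), and in AsiSI the log2 fold change was 0.15 (SE 0.0929, adjusted p = 0.211). The difference between lines was -0.29 log2 units, with an unadjusted p of 0.0373 and an adjusted p of 0.243. AAMDC runs through 36.6% of the INTS4 interval on the opposite strand and had 0.547 times its counts, with no call of its own in either line (log2 changes 0.08 and 0.02). INTS4 also has pseudogene copies, and how reads were split among near-identical copies is not given in the sources used here.

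INTS3 (ENSG00000143624.14_8, chromosome 1, 153700526 to 153747284, plus strand, hg19), which joins Integrator to the SOSS complex, stood at 44.8 and 47.0 CPM under siNC and 37.7 and 33.2 CPM under siMePCE in Flp-In. Its AsiSI libraries stood at 44.7 and 44.4 CPM under siNC and 33.2 and 27.6 CPM under siMePCE. The siMePCE libraries were lower in both lines. INTS3 fell 1.29-fold in Flp-In (log2 fold change -0.37, SE 0.109, adjusted p = 0.00927), and in AsiSI it fell 1.46-fold (-0.55, SE 0.110, adjusted p = 0.000406). The Flp-In call was lost without Flp-In siNC replicate 2 (adjusted p = 0.0681) or Flp-In siMePCE replicate 2 (0.127).

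INTS12 (ENSG00000138785.16_17, chromosome 4, 106603784 to 106817143, minus strand, hg19) stood at 98.3 and 97.1 CPM under siNC and 98.2 and 97.4 CPM under siMePCE in Flp-In, which overlapped. Its log2 fold change there was 0.001 (95% interval -0.20 to 0.20, adjusted p = 0.995). In AsiSI it stood at 64.6 and 56.1 CPM under siNC and 59.8 and 52.7 CPM under siMePCE, again overlapping, with a log2 fold change of -0.10 (95% interval -0.30 to 0.10, adjusted p = 0.435). This row says little about INTS12 itself, because GSTCD lies wholly inside its interval on the opposite strand, covers 65.1% of it and had 0.756 times its counts.

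The overlaps were examined by taking the count of the largest overlapping row from each member's count and fitting again, an alternative chosen after the overlaps had been seen. Where the overlapping gene is not nested this removes more reads than the 2 rows share. INTS12 kept 21.8% to 26.6% of its counts and had log2 changes of 0.23 (adjusted p = 0.166) in Flp-In and 0.05 in AsiSI. INTS4 kept 36.2% to 54.3% and rose in both lines, by log2 changes of 0.90 (adjusted p = 1.46e-06) in Flp-In and 0.32 (adjusted p = 0.0284) in AsiSI. For INTS4 the difference between lines then passed too, at -0.59 (adjusted p = 0.0356). INTS5 fell further, with log2 changes of -1.003 (adjusted p = 0.00256) and -1.36 (adjusted p = 0.000139). What was left of INTS5 varied between replicates, at 28.2% and 53.8% of its counts in the AsiSI siMePCE libraries. INTS6 rose by 0.37 and 0.38 on the log2 scale, and INTS8 fell by 0.75 and 0.66. The calls for INTS1, INTS5, INTS8 and INTS11, lower in both lines, held under every alternative tried.

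**Figure D3:**
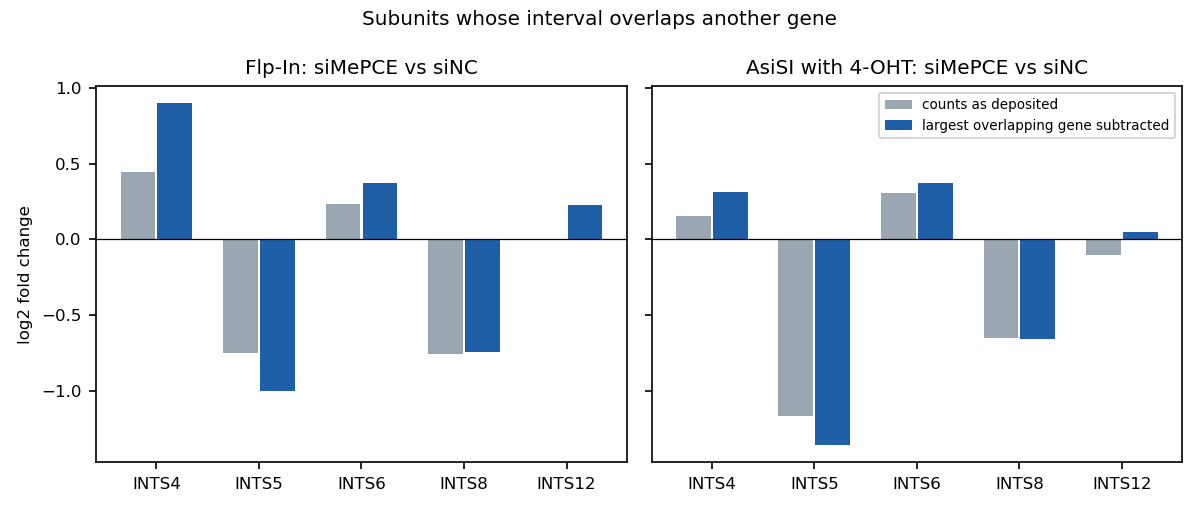
Log2 fold change after siMePCE of the 5 subunits whose largest overlapping row had 0.177 to 0.756 times their counts, with counts as deposited (grey) and after that row was subtracted (blue). The INTS4 bar grows from 0.45 to 0.90 in Flp-In, and the INTS8 bars move least.

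The 10 subunits span intervals of very different length, and long and short genes did not behave alike in these libraries. Among protein-coding genes in Flp-In the median log2 change was -0.45 for intervals under 10 kb, -0.23 for 10 to 25 kb, -0.08 for 25 to 50 kb and 0.01 for 50 to 100 kb, and 0.05 and 0.08 for longer ones. In AsiSI it went from -0.40 under 10 kb to 0.14 over 200 kb. Across the 10 members, Spearman's rho between length and log2 change was 0.65 in Flp-In and 0.71 in AsiSI, as a description of 10 points that share libraries. The short genes INTS5 and INTS11 (13.1 kb) fell, and INTS6 (100.2 kb) and INTS4 (120.3 kb) did not. INTS11 changed by -0.84 and -1.06, where the medians were -0.23 and -0.25. INTS5 changed by -0.75 and -1.17, where they were -0.45 and -0.40. INTS6 (0.23 and 0.30) and INTS4 (0.45 and 0.15) lay above theirs, 0.05 and 0.01. Length did not order the members fully. The members with the longest intervals, INTS9 and INTS12, were not among those that rose. INTS9 (122.6 kb) changed by -0.11 and -0.34, where the medians were 0.05 and 0.01. INTS12 (213.4 kb) changed by 0.001 and -0.10, where the medians were 0.08 and 0.14. Its interval holds all of GSTCD, with an overlap of 139 kb, yet in RefSeq they start 95 bases apart on opposite strands. The interval thus runs far past the RefSeq start of INTS12. Measured from that start INTS12 would be shorter and set beside other medians, and rho above uses the deposited length. INTS1 spans 34.1 kb, where coding genes had a median of -0.08 in Flp-In and -0.15 in AsiSI, and fell by 1.29 and 1.37. INTS8 spans 68.4 kb, where the medians were 0.01 and -0.07, and fell by 0.76 and 0.65. The part of length in these changes was not tested.

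**Figure D4:**
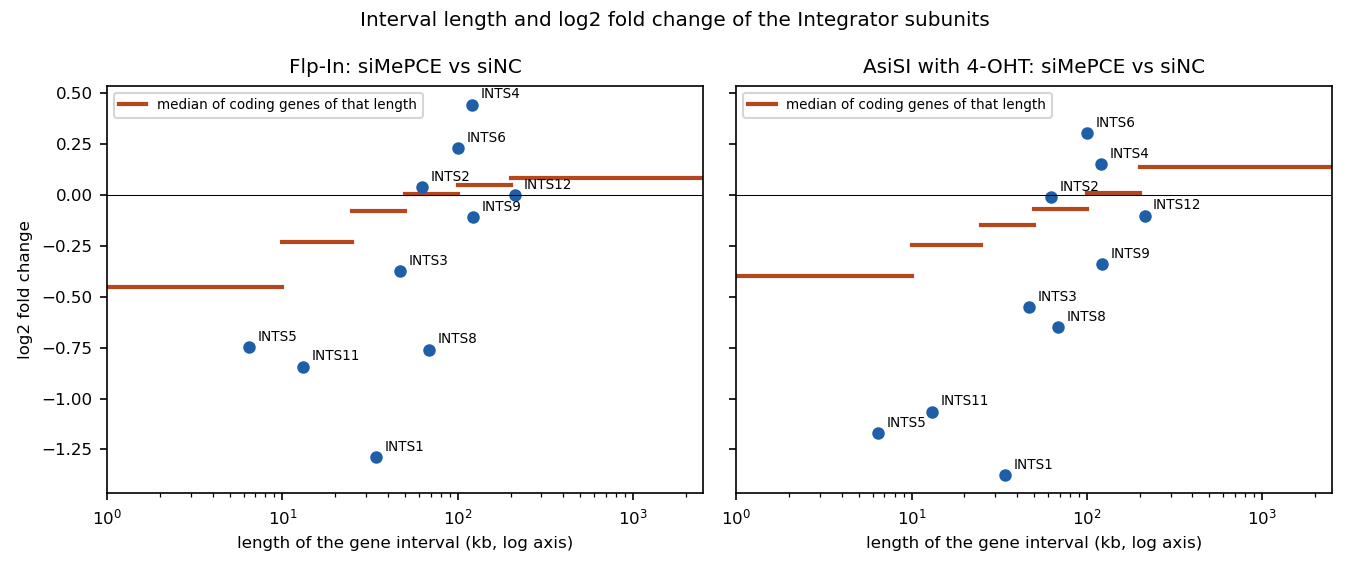
Log2 fold change after siMePCE against the length of the gene interval in kb (log axis) for the 10 subunits (points), with the median of protein-coding genes in each range of length (bars), in Flp-In and in AsiSI with 4-OHT. INTS5 and INTS11 are short and low, and INTS4 and INTS6 are long and high. INTS1, INTS8, INTS11, INTS5 and INTS3 lie under the bar for their length. INTS9 and INTS12, with the longest intervals, also lie under the bar for their length, but the INTS12 interval runs far past its RefSeq start.

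The knockdown effect itself was compared between lines. None of the 10 members passed the test of the difference at the adjusted threshold, beside 1.66% of all genes with a lower and 2.51% with a higher effect in AsiSI. At an unadjusted p under 0.05, INTS4 and INTS5 differed, as given above. DESeq2 and the fit with a replicate block called none of the 10 either. A missed threshold does not show that the lines respond alike, since the intervals of the differences were wide, as for INTS8 (0.11 log2 units, 95% interval -0.20 to 0.42). Over both lines averaged, 6 members were lower, INTS9 among them (log2 change -0.22, adjusted p = 0.0211), and 2 were higher, beside 27.2% and 25.2% of all genes. Of protein-coding genes, 40.7% were lower and 24.5% higher in that average. The INTS9 call was lost with the stricter filter (adjusted p = 0.0805), with the fold threshold of 1.2 (0.570), and without either Flp-In siNC library, Flp-In siMePCE replicate 2, AsiSI siNC replicate 2 or AsiSI siMePCE replicate 2 (0.0527 to 0.0767), which left 5 lower.

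The lines were compared with each other first under siNC. INTS1 was higher in AsiSI and INTS9, INTS12, INTS6 and INTS2 were lower, 1 and 4 of 10, beside 14.4% of all genes higher and 15.1% lower. Of protein-coding genes, 17.7% were higher and 23.3% lower. INTS1 was 1.75-fold higher (log2 difference 0.80, SE 0.0978, adjusted p = 1.85e-06). INTS9 was 1.74-fold lower (-0.80, SE 0.110, adjusted p = 1.00e-05) and INTS12 1.62-fold lower (-0.70, SE 0.0950, adjusted p = 8.32e-06). GSTCD inside INTS12 was lower by -0.72 on the log2 scale, and with its counts subtracted INTS12 was still lower (-0.63, adjusted p = 0.000792). GSTCD-AS1 and ARHGEF38 also overlap INTS12, with 0.268 and 0.231 times its counts, and were not subtracted. Their own log2 differences were -0.83 and -0.61. How much of the remaining difference belongs to INTS12 itself was not tested. INTS6 (-0.36, adjusted p = 0.00430) and INTS2 (-0.35, adjusted p = 0.0188) were lower by less. Leaving out AsiSI siNC replicate 2 (adjusted p = 0.279) or either Flp-In siNC library (0.156 and 0.0900) ended the INTS2 call. The INTS6 call was lost without AsiSI siNC replicate 1 (0.0565) or Flp-In siNC replicate 2 (0.102).

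Under siMePCE the same 5 subunits passed in the same directions, beside 15.6% of all genes higher and 15.9% lower. Of protein-coding genes, 16.5% were higher and 27% lower. INTS1 was higher by 0.72 on the log2 scale, and INTS9 (-1.03), INTS12 (-0.80), INTS2 (-0.40) and INTS6 (-0.29) were lower. With the fold threshold of 1.2 the INTS2 and INTS6 calls were lost (adjusted p = 0.130 and 0.381). The INTS2 call was also lost without Flp-In siMePCE replicate 1 (0.0635) or AsiSI siMePCE replicate 2 (0.152). Leaving out any Flp-In library or AsiSI siMePCE replicate 1 ended the INTS6 call (0.0591 to 0.0993). In both siRNA conditions INTS9 and INTS12 libraries of AsiSI lay wholly below those of Flp-In. Of the 10 members, 6 did not overlap between lines on the lower side and 3 on the higher side under siNC, beside 32.8% and 31.6% of all genes. Under siMePCE these were 7 and 1, beside 32.0% and 31.0%. The endonuclease INTS11 did not pass in either comparison (log2 differences 0.04 and -0.18, adjusted p = 0.864 and 0.297).

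Patterns over the 8 libraries were then compared among members by the correlation of log2 CPM, a description of 8 points that share libraries. INTS11 followed INTS5 (Pearson r = 0.98), INTS3 (0.93) and INTS8 (0.92), and INTS9 followed INTS12 (0.96). The INTS12 row holds GSTCD and, as given above, says little about INTS12 itself. INTS1 and INTS6 ran opposite to each other (-0.90). Among 12328 genes of mean CPM of at least 10, the patterns most like INTS11 were those of H2AC12 and DUS1L (both r = 0.998) and RNF41 (0.998). Those most like INTS1 were PRRC2A (0.999), TUBB (0.998) and PSMG3 (0.997).

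Of the 6 subunits outside the set (INTS7, INTS10, INTS13, INTS14, INTS15 and INTS6L), none passed in Flp-In with edgeR or DESeq2 and none reached an unadjusted p under 0.05, whereas 5 of 6 fell in AsiSI, beside 22.7% of all genes lower in Flp-In and 21.3% in AsiSI (34.2% and 35.0% of protein-coding genes). In AsiSI the log2 changes were -0.52 for INTS13 (adjusted p = 8.53e-05), -0.45 for INTS14, -0.39 for INTS7, -0.38 for INTS10 and -0.34 for INTS15, and the count was 3 without AsiSI siMePCE replicate 2. DTL overlaps INTS7 and had 1.28 times its counts. INTS13 and INTS14, which with INTS10 form the tail module, passed the test of the difference between lines. INTS13 stood at 80.3 and 81.5 CPM under siNC and 78.4 and 84.0 CPM under siMePCE in Flp-In, against 69.4 and 70.8 and then 48.2 and 49.9 CPM in AsiSI. Its difference was -0.52 log2 units (adjusted p = 0.0195), and that of INTS14 was -0.52 (adjusted p = 0.0353), but neither passed without either Flp-In siNC library, without Flp-In siMePCE replicate 1 or without AsiSI siMePCE replicate 2.

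Among partners of the complex, BRAT1, which binds the INTS9 and INTS11 pair, fell in both lines, by log2 changes of -0.61 (adjusted p = 9.22e-05) and -0.85 (adjusted p = 1.42e-06). It was the only 1 of 4 partners listed (BRAT1, WDR73, ZNF609 and ZNF655) to do so, and ZNF609 fell in Flp-In (-0.27, adjusted p = 0.0175). That made 2 of 4 lower in Flp-In and 1 of 4 in AsiSI, beside 22.7% and 21.3% of all genes (34.2% and 35.0% of protein-coding genes). ZNF655 passed in neither line but was lower in AsiSI than in Flp-In under siNC (-0.75, adjusted p = 1.15e-05). Of the 4 genes of the PP2A core, 3 rose in Flp-In, and in AsiSI 2 rose and 1 fell, beside 18.1% of all genes higher in Flp-In and 16.8% higher and 21.3% lower in AsiSI. PPP2CA, a catalytic subunit, rose by 0.68 and 0.36 on the log2 scale, and PPP2R1B, a scaffold, by 0.44 and 0.28. PPP2CB rose in Flp-In (0.54), and PPP2R1A fell in AsiSI (-0.28). A row overlapping PPP2CA had 1.65 times its counts. Of the 3 genes that join INTS3 in SOSS, 1 rose in Flp-In and 1 fell in AsiSI, beside 18.1% of all genes higher in Flp-In and 21.3% lower in AsiSI. INIP rose in Flp-In (0.54, adjusted p = 0.000465), NABP2 fell in AsiSI (-0.52, adjusted p = 0.00261), and NABP1 passed in neither.

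The cleavage and polyadenylation machinery, whose CPSF3 and CPSF2 are relatives of INTS11 and INTS9, was listed as 16 genes. In Flp-In 6 fell and 2 rose, and in AsiSI 8 fell and 2 rose, with medians of -0.07 and -0.26. Among protein-coding genes, 34.2% fell and 20.4% rose in Flp-In, and 35.0% fell and 16.9% rose in AsiSI. CPSF1 fell by 1.25 and 1.52 on the log2 scale, PAPOLA by 0.74 and 0.66, and the endonuclease CPSF3 by 0.81 and 0.68. CPSF4 fell by 0.81 and 0.90, with an overlapping row of 5.06 times its counts. CPSF2, the relative of INTS9, fell by 0.40 and 0.68. FIP1L1 rose by 0.41 and 0.24, though an overlapping row had 2.47 times its counts.

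Spliceosomal snRNAs are products of Integrator cleavage, and reads over their genes were examined by polymerase. Of 20 listed genes transcribed by polymerase II, 16 had a row and 11 passed the filter on low counts. Of these 11, 9 rose in Flp-In and 4 in AsiSI, beside 18.1% and 16.8% of all genes, and none fell with edgeR, at an unadjusted p under 0.05 or with DESeq2. The medians were 1.69 and 0.65 on the log2 scale. RNU2-2P, the most abundant, stood at 1485 and 1945 CPM under siNC and at 4338 and 3110 CPM under siMePCE in Flp-In. Its AsiSI libraries stood at 1919 and 2053 CPM under siNC and at 2999 and 3214 CPM under siMePCE. It rose by 1.12 (SE 0.116, adjusted p = 1.47e-07) and 0.65 (SE 0.115, adjusted p = 0.000129) on the log2 scale. RNU1-1 rose from 11 and 13 counts to 59 and 47 in Flp-In, and from 29 and 39 counts to 83 and 106 in AsiSI. RNVU1-18 rose by 0.95 and 1.36 on the log2 scale, and RNU5B-1 rose by 2.35 in Flp-In and did not pass in AsiSI (0.66, adjusted p = 0.133). None of the 4 polymerase III genes tested (of 6 listed, all with a row), which do not depend on Integrator cleavage, passed in either line with edgeR or DESeq2. At an unadjusted p under 0.05 there were 0 in Flp-In and 1 in AsiSI, RNU6-2 (log2 change 0.85, adjusted p = 0.0778). The 4 polymerase III genes had group means of only 0.14 to 1.32 CPM. The SEs of their log2 changes were 0.37 to 0.79, so a change like that of RNU2-2P could be missed. A row overlapping RNU6ATAC had 45 times its counts. The snRNA genes of both kinds are multicopy or lie inside longer genes, so reads cannot be assigned to a copy. RNU2-2P overlaps STX5-DT, which had 1.05 times its counts, and a row overlapping RNVU1-18 had 1.38 times the counts of RNVU1-18. The count of 9 was 7 without Flp-In siMePCE replicate 1, which held the highest level of RNU4-1 (71.3 CPM against 43.4 in replicate 2).

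**Figure D5:**
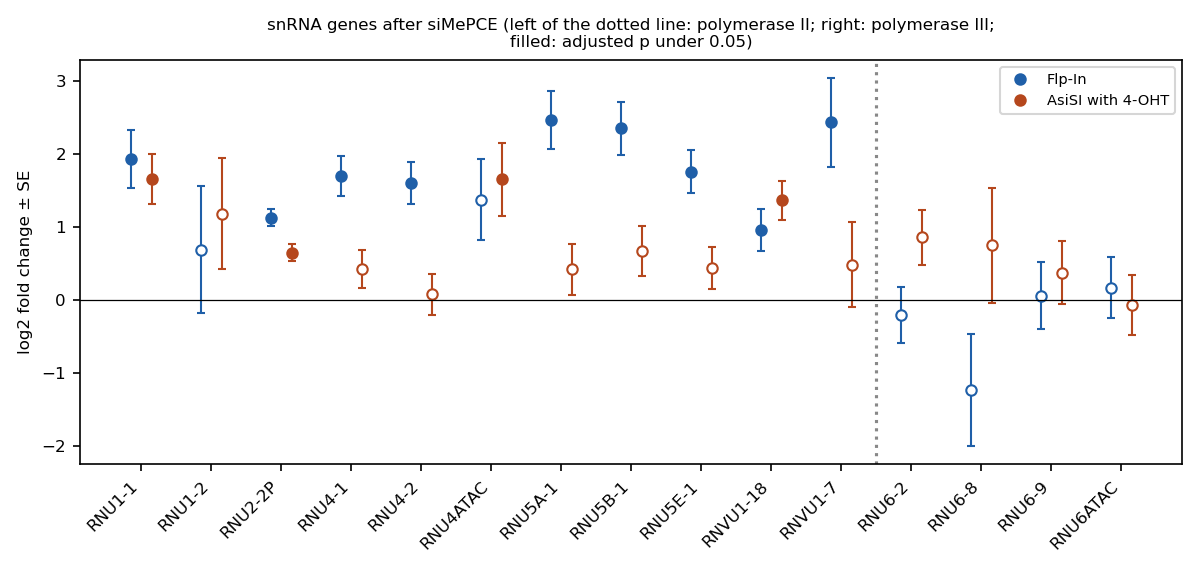
Log2 fold change ± SE after siMePCE of 11 polymerase II and 4 polymerase III snRNA genes in Flp-In (blue) and in AsiSI with 4-OHT (red); filled points passed an adjusted p of 0.05. All 9 filled blue points and all 4 filled red points lie on the polymerase II side and above 0. The polymerase III genes had group means of only 0.14 to 1.32 CPM.

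Factors that transcribe and mature snRNAs were listed as 12 genes, of which 4 rose and 2 fell in Flp-In, and 3 rose and 5 fell in AsiSI. The shares of protein-coding genes called were 20.4% higher and 34.2% lower in Flp-In, and 16.9% higher and 35.0% lower in AsiSI. SNAPC1, a subunit of the snRNA promoter-binding complex, fell by 1.49 and 1.33 on the log2 scale, with an overlapping row of 2.26 times its counts. ZNF143, which activates snRNA promoters, rose by 0.62 and 0.66, and PHAX, the snRNA export adaptor, by 0.55 and 0.36. TOE1, a 3′ exonuclease of snRNAs, fell by 0.50 and 0.85, with an overlapping row of 2.44 times its counts.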

How the data were processed

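Total RNA was sequenced from 8 U2OS libraries in 4 groups of 2. Per the labels' protocols, RNA was taken with a Norgen kit and libraries were made with the NEBNext Ultra II directional kit after ribosomal RNA removal. Per the submitters' processing notes, the tools were Trim Galore, FastQC, STAR, SAMtools and featureCounts, with no versions, and the build was hg19. The authors deposited raw read counts per gene. In the deposited table each length equals end minus start plus 1, so introns are included. Of 3538 same-strand and 6891 opposite-strand nested pairs with mean counts of at least 20, in 0 did the nested gene exceed its host, so reads appear to be counted for every overlapping gene and without strand. These settings are not given in the sources used here.

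After filterByExpr and TMM scaling, edgeR 4.0.16 (R 4.3.3) fitted 4 group means to the counts and ran its quasi-likelihood test, with Benjamini-Hochberg adjustment over 43321 genes and a threshold of 0.05. SE is the log2 fold change over the root of F. CPM uses TMM-scaled totals. The common biological coefficient of variation was 0.121, and replicates differed beyond sampling noise (chi-square per degree of freedom 4.51 to 11.3). Symbols were available for 74.3% of rows, and gene types came from GENCODE release 29.

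The members and gene lists were chosen with earlier results of these data known. Named are all members, MEPCE and RN7SK, up to 4 genes per other list that were called in either line, in the difference between lines or between lines under siNC, taken by adjusted p in the average of both lines, and the 3 genes most correlated with INTS11 and with INTS1. CPSF2, FIP1L1, INTS15, RNU4-1, RNU4-2, RNU5A-1, RNU6-2 and some marker genes were named outside this rule, once their values were known. The alternatives tried were DESeq2 1.42.0 and its size factors, other filters, removal of mitochondrial, 7SK, 7SL and ribosomal RNA genes, a replicate block, a fold threshold of 1.2, only the 4 libraries compared, each library left out, and subtraction of overlapping rows.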

Additional observations from a re-analysis of the deposited data

Results flagged for a closer look

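In 4 genes outside the 10 subunits, the effect of siMePCE on RNA differed between AsiSI cells with 4-OHT and Flp-In cells by edgeR's test of the difference. The differences, as log2 change in AsiSI minus that in Flp-In, were -0.52 for INTS13, -0.52 for INTS14, -1.52 for RNU4-2 and -2.05 for RNU5A-1 (adjusted p = 0.0195, 0.0353, 0.0307 and 0.0299). INTS13 and INTS14 fell in AsiSI and did not pass in Flp-In. RNU4-2 rose in Flp-In from 10.3 and 22.7 CPM to 64.8 and 34.7 CPM and stood at 16.2 and 28.5 and then 23.3 and 23.9 CPM in AsiSI. RNU5A-1 rose in Flp-In from 16 and 54 counts to 309 and 140 and stood at 109 and 170 and then 168 and 158 counts in AsiSI. PARP16 overlaps RNU5A-1 and had 5.5 times its counts. Each of the 4 lost the call in at least 4 of the 8 fits that left out 1 library, and DESeq2 gave an adjusted p of 0.343 for RNU4-2 and 0.259 for RNU5A-1.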

How the results depend on the processing

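Depth was no limit for the 10 subunits, which had at least 517 counts in every library, and 2 libraries per group limit every test. Counts of subunits called moved by more than 1.5 times as follows. With the fold threshold of 1.2, those higher were 1 in Flp-In (2 in the fit reported), 0 in AsiSI (1) and 0 in the average (2), and those lower in AsiSI than in Flp-In were 2 (4) under either siRNA. With no filter, 1 was higher in Flp-In. With the stricter filter (CPM of at least 1 in 2 libraries), 2 were higher in AsiSI. With overlapping rows subtracted, 2 were higher in AsiSI, 1 (0) had a lower effect in AsiSI and 2 (1) were higher in AsiSI than in Flp-In under siNC. Leaving out 1 library gave 1 to 2 higher in Flp-In, 0 to 1 higher in AsiSI, and 2 to 4 lower between lines under siNC and under siMePCE. For the subunits outside the set, the fold threshold left 2 (5) lower in AsiSI and 0 (2) in the difference, with 3 to 5 and 0 to 3 when 1 library was left out. For snRNA genes lower in the difference (2), no filter gave 6, the fold threshold and DESeq2 0, and leaving out 1 library 0 to 6. Deviations of libraries with the same replicate number correlated at 0.0415 to 0.239 over the 6 pairs of groups, all positive. They were 0.0716 within Flp-In, 0.223 within AsiSI, 0.200 between lines under siNC and 0.239 under siMePCE. These values do not show that the numbers are unrelated. The replicate number was not taken as a pairing because the labels do not say that it marks a shared culture or day. As a replicate block, the number left 5 members lower and 2 higher in Flp-In and 6 and 1 in AsiSI, and gave 4 snRNA genes in the difference; 3.01% of all genes had a lower and 3.71% a higher effect in AsiSI, against 1.66% and 2.51%.

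Signs changed only in values that no fit called, and the cause was not tested. INTS2 in AsiSI was 0.019 with DESeq2 or its size factors, 0.068 with the stricter filter, 0.013 with 4 libraries, and -0.18 to 0.13 with 1 library left out; its average was -0.010 with no filter and -0.076 to 0.081. INTS12 in Flp-In was -0.026 with no filter and -0.019 to 0.0043; its average was 0.029 with the stricter filter and 0.14 after subtraction, and 0.049 after subtraction in AsiSI. INTS5 between lines under siMePCE was 0.066 after subtraction. With 1 library left out, the difference ranged from -0.24 to 0.075 for INTS1, -0.21 to 0.10 for INTS2 and -0.20 to 0.00091 for INTS12, and the line comparison under siNC from -0.046 to 0.13 for INTS11 and -0.051 to 0.021 for INTS3.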
